A study of Mus musculus with 7 samples.

Results

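The killer lectin-like receptors measured here are the products of 9 mouse genes, *Klrg1*, *Klrd1*, *Klrk1*, *Klrc1*, *Klrc2*, *Klre1*, *Klrb1c*, *Klra7*, and *Klri2*, chosen by symbol from the 55367 genes of the count table; all 9 were found. The RNA came from CD8+ T cells sorted from spleens of Foxp3 YFP/cre mice, a reporter strain in which the *Foxp3* locus drives YFP and Cre, and then kept for 48 h with small extracellular vesicles (sEVs) at 100 µg/ml. In 3 libraries the vesicles came from the leukemia microenvironment (LME-sEVs), that is, from spleens of leukemic Eμ-*TCL1* mice, in which a B-cell-directed *TCL1* transgene gives a disease resembling chronic lymphocytic leukemia. In the 4 control libraries they came from the healthy control microenvironment (HCME-sEVs), the spleens of mice without leukemia. The groups are those of the sample labels. A figure legend for this experiment gives the sizes of both groups exchanged, and if the groups themselves were exchanged every direction below would turn. The dose and the sorting are also those of the labels, whereas the methods describe CD8+ T cells isolated by negative selection and vesicle amounts set to those found in each kind of spleen, so that an equal dose in both groups is not certain. The methods describe CD8+ cultures with plate-bound CD3 antibody, CD28 antibody, and IL2, in both arms alike, so that the receptors were read in stimulated cells and without a library from cells given no vesicles. Because the vesicle preparations were taken from whole spleens, vesicles of leukemic and other spleen cells were not separated.

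Killer lectin-like receptors are C-type lectin-like proteins of the cell surface that natural killer (NK) cells carry and that CD8+ T cells acquire on activation. Some of them recognize class I MHC molecules or their stress-induced relatives, and they hold back or boost killing according to the signaling motif or adaptor that they carry. CD94, the product of *Klrd1*, has no signaling tail of its own and pairs with the inhibitory chain NKG2A (*Klrc1*) or the activating chain NKG2C (*Klrc2*) to read Qa-1, whereas NKG2D (*Klrk1*) forms a homodimer that signals through DAP10. KLRE1 likewise needs a partner chain, of which KLRI2 is the activating one.

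In LME-sEV-treated cells, the mRNAs of *Klrd1* and *Klrk1* rose 1.45-fold and 1.41-fold by their group means, whereas the inhibitory chain *Klrc1*, the third abundant receptor mRNA, had a mean of 140 CPM in both groups. Of the 9 receptors, 7 had enough counts for the test across genes (5 or more counts on average over the libraries), of which 2 rose, 0 fell, and 5 did not pass it. A gene was called at a false discovery rate (FDR) under 0.05, which is the Benjamini-Hochberg adjusted p of the quasi-likelihood test in edgeR. By that rule 473 of the 12623 tested genes were higher (3.75%), 658 were lower (5.21%), and 8.96% were called in either direction. The median log2 fold change was 0.01 over the 7 receptors and 0.01 over all tested genes. No tested receptor reached a log2 fold change of 1, a size that 1.28% of tested genes passed together with the FDR.

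The libraries held between 3689831 and 5030522 counts, each a captured molecule after collapsing of unique molecular identifiers, and 3 counts corresponded to between 0.582 and 0.807 CPM. Levels below are CPM, the count of a gene scaled to a fixed library total, after TMM normalization, which brings libraries to a common level through a trimmed mean. Reads start at transcript 3′ ends, hence gene length plays no part. Levels of different genes may be set side by side, except where nearly identical 3′ ends, named below, leave the assignment of reads uncertain. Scaling by library size alone in place of TMM gave 614 genes higher and 465 lower. Replicates of a group differed by more than counting noise in every pair, and because nothing states that they came from separate animals, the p-values measure only the spread between these libraries, which may be technical. The number of calls fell from 1131 to 391 (168 higher, 223 lower) without LME-sEV library 2, to 458 (195 and 263) without LME-sEV library 3, and to 723 (301 and 422) without HCME-sEV library 2. As these are bulk samples, fewer cells carrying a receptor and less mRNA per cell cannot be told apart.

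The CD8 T markers *Cd3d*, *Cd3e*, *Cd3g*, *Cd8a*, *Cd8b1*, and *Trac* were present in every library. Together they made up 1575 to 1799 CPM in the HCME-sEV group and 1840 to 2131 CPM in the LME-sEV group, which do not overlap. In this direction 9.49% of single tested genes lay without overlap. Transcripts of other cell types were also found and are given below. *Cd4* had at most 3 counts and *Ncr1*, which encodes NKp46 and defines NK cells, at most 1. The T-cell receptor chains *Cd3e* (log2 fold change 0.36, edgeR FDR = 0.0106) and *Cd3g* (0.49, edgeR FDR = 0.0405) rose. The call of *Cd3g* was lost in DESeq2 (FDR = 0.278) and, by edgeR, without HCME-sEV library 1 or 4 or LME-sEV library 2 or 3 (FDR = 0.0707 to 0.193), and that of *Cd3e* without LME-sEV library 2 or 3 (FDR = 0.0909 and 0.0548).

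The receptor genes lie on chromosome 6, and all but *Klrg1* lie in the NK gene complex, where *Klre1*, *Klrd1*, *Klrk1*, *Klrc2*, *Klrc1*, and *Klri2* follow one another between bases 129577905 and 129740484 (GRCm38). The promoters of *Klrk1* and *Klrc1* are shown because these genes of the same stretch had similar control levels and only the first was called. They are not adjacent, since *Klrc3* and *Klrc2* lie between them. The 250 bases before the start of each gene, on the minus strand, were taken from RefSeq (GRCm38.p6), at chr6:129623865-129624114 for *Klrk1* and chr6:129678974-129679223 for *Klrc1*, and capitals mark the motif of the RUNX factors, ACCACA on either strand:
Klrk1: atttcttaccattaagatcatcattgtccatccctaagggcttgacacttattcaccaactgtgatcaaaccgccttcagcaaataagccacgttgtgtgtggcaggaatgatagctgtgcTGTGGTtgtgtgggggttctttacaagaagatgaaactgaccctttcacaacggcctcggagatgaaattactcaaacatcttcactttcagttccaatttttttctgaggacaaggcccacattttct
Klrc1: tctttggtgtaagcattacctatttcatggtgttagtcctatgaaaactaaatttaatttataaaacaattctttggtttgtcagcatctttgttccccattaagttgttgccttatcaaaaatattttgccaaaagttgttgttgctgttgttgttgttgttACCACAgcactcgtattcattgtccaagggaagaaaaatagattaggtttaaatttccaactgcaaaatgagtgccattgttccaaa

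The promoters of the called and the uncalled gene held 1 RUNX match each, and neither held the T-box letters TCACACC or the ETS letters GGAAGT on either strand. Matches of different motifs did not overlap in these windows. Among 32851 promoter windows of the same annotation, spanning 250 bases before to 50 after a start, 16.8% held the RUNX letters, 3.98% the T-box letters, and 23.8% the ETS letters. Windows were found for 6 of the 9 receptors. *Klrc2* held 2 RUNX matches, *Klrb1c* held 1 RUNX and 1 ETS match, *Klre1* held 1 or 0 RUNX matches according to which of its starts was taken, and *Klra7* held none of the 3 motifs. *Klrd1*, *Klrg1*, and *Klri2* had no window. A match describes letters and not a bound site.

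*Klrd1*, the shared CD94 chain, was the most abundant receptor mRNA in every library. It reached 206, 309, 359, and 219 CPM in the 4 HCME-sEV libraries and 356, 445, and 389 CPM in the 3 LME-sEV libraries. HCME-sEV libraries 2 and 3 were high and libraries 1 and 4 low, and the groups overlapped, since HCME-sEV library 3 lay just above LME-sEV library 1. The means were 273 ± 73 CPM (SD, n = 4) and 397 ± 45 CPM (SD, n = 3), a ratio of 1.45. The log2 fold change was 0.54 with an SE of 0.137 and a 95% confidence interval of 0.25 to 0.83 (edgeR FDR = 0.0170). The call was lost by the DESeq2 Wald test (FDR = 0.171) and in the edgeR fit without HCME-sEV library 4 (FDR = 0.0680), LME-sEV library 2 (FDR = 0.134), or LME-sEV library 3 (FDR = 0.0605), with a log2 fold change of 0.43 to 0.70 whichever library was left out.

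*Klrk1* encodes NKG2D, which binds the stress-induced ligands of the RAE-1, H60, and MULT1 families and costimulates CD8+ T cells. Its values were 131, 166, 183, and 122 CPM in the HCME-sEV libraries and 220, 227, and 192 CPM in the LME-sEV libraries. Every LME-sEV library lay above every HCME-sEV library, which held for 1 of the 7 tested receptors and, in this direction, for 9.49% of all tested genes. The means were 151 ± 29 CPM (SD, n = 4) and 213 ± 18 CPM (SD, n = 3), a ratio of 1.41. The log2 fold change was 0.50 with an SE of 0.112 and a 95% confidence interval of 0.27 to 0.73 (edgeR FDR = 0.00768). Without LME-sEV library 2 it was 0.45 and missed the threshold (edgeR FDR = 0.0672), whereas the DESeq2 Wald test called it (FDR = 0.00186).

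**Figure D1:**
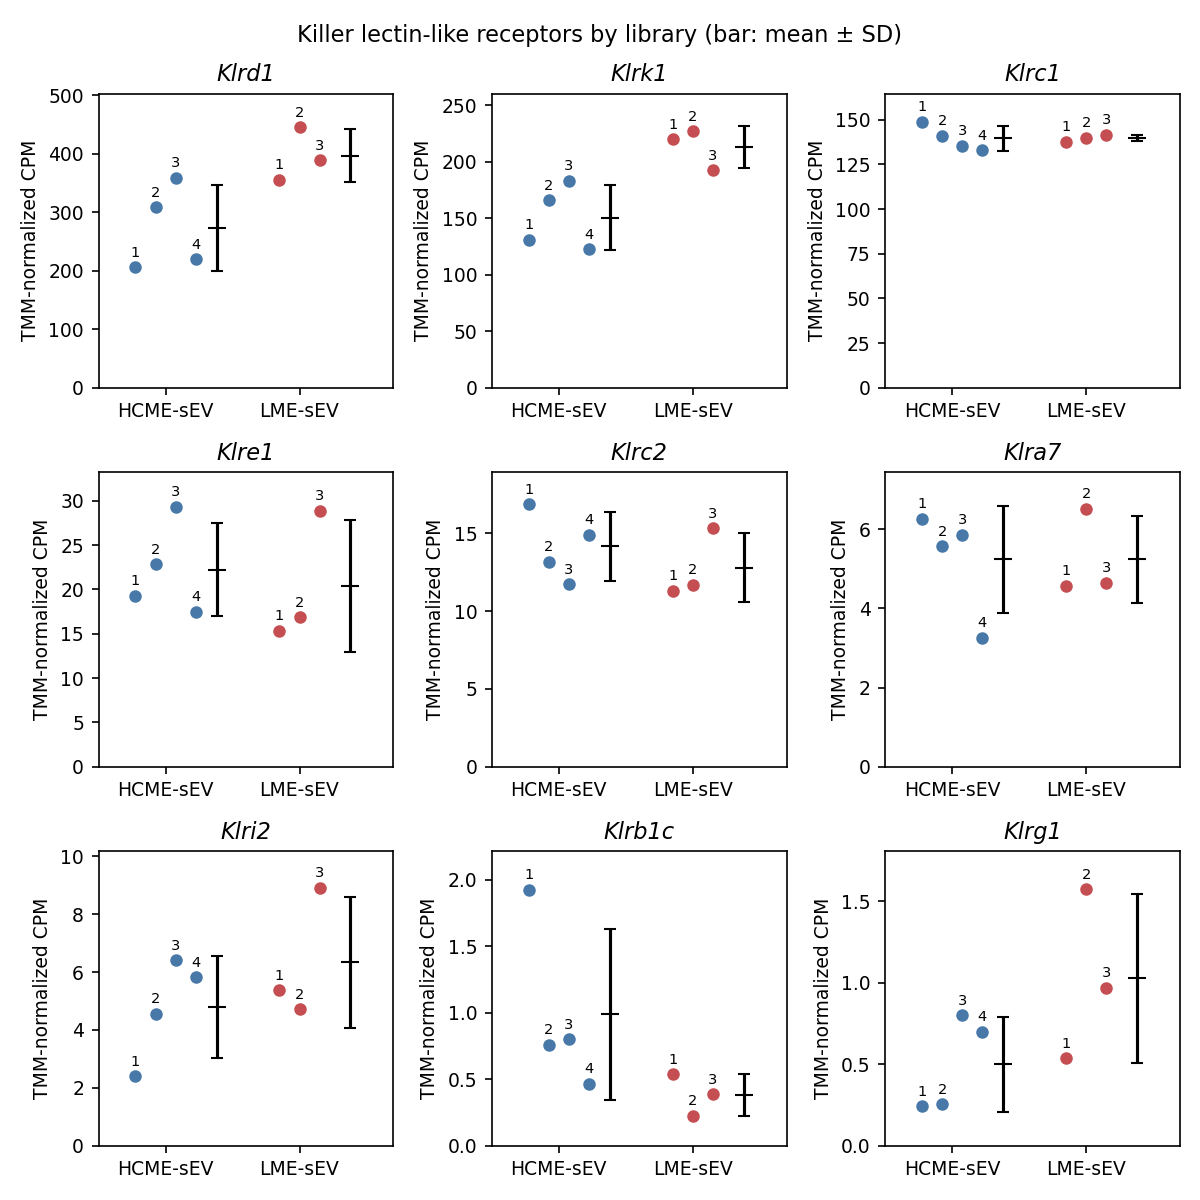
TMM-normalized CPM of the 9 killer lectin-like receptors (vertical axes from 0, one scale per gene) in 4 HCME-sEV (blue) and 3 LME-sEV (red) libraries, with points numbered by library and bars showing mean ± SD. *Klrk1* is the panel in which tested groups do not overlap, *Klrd1* is higher in LME-sEV libraries except that HCME-sEV library 3 reaches 359 CPM, and *Klrc1* stays between 133 and 149 CPM throughout.

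*Klrc1* encodes NKG2A, the inhibitory partner of CD94 and an immune checkpoint. It measured 149, 141, 136, and 133 CPM in the HCME-sEV libraries and 138, 140, and 142 CPM in the LME-sEV libraries. The LME-sEV values all fell within the range of the HCME-sEV values, and the means were 140 ± 7.1 CPM (SD, n = 4) and 140 ± 1.9 CPM (SD, n = 3). The log2 fold change was 0.00 with a 95% confidence interval of −0.16 to 0.16 (edgeR FDR = 0.992), the narrowest interval among the receptors. *Klrc1* also varied least among replicates, with a coefficient of variation of 5.06% in the HCME-sEV group, where counting alone would give 4.21%, against 26.8% for *Klrd1*, where counting would give 3.03%.

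The activating chain *Klrc2* was far scarcer than *Klrc1*. It ran at 16.9, 13.2, 11.7, and 14.9 CPM in the HCME-sEV libraries and at 11.3, 11.7, and 15.3 CPM in the LME-sEV libraries, and the groups overlapped. Its log2 fold change of −0.14 had an SE of 0.176 and a 95% confidence interval of −0.51 to 0.23 (edgeR FDR = 0.700). The last 300 bases of *Klrc1* and *Klrc2* transcripts were 97.3% identical, and *Klrc3* was 97.3% identical to *Klrc1* and 95.7% to *Klrc2*, so that the division of 3′ reads among them is uncertain. *Klrc3* itself had 1 count in 1 library.

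Set against its partner in the same library, *Klrc1* gave 72.4, 45.7, 37.7, and 60.6 counts per 100 *Klrd1* counts in the HCME-sEV libraries and 38.7, 31.4, and 36.4 in the LME-sEV libraries. The LME-sEV ratios clustered at the low end, but HCME-sEV library 3 fell among them, so the groups overlapped. The means were 54.1 ± 15.4 (SD, n = 4) and 35.5 ± 3.72 (SD, n = 3) counts per 100. *Klrk1* per 100 *Klrd1* counts was alike in both groups, at 56.0 ± 5.42 (SD, n = 4) and 54.1 ± 6.73 (SD, n = 3). The CPM means of *Klrk1* and *Klrd1* had similar ratios between groups, 1.41 and 1.45. Both mRNAs were also high in the same HCME-sEV libraries.

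*Klrd1*, *Klrk1*, and *Klrc1* together made up 91.2% to 95.1% of all receptor counts in each library. The sum over the 9 receptors was 532, 663, 733, and 517 CPM in the HCME-sEV libraries and 751, 854, and 782 CPM in the LME-sEV libraries, with every LME-sEV sum above every HCME-sEV sum. The nearest sums were 733 and 751 CPM, and 9.49% of single tested genes lay without overlap in this direction. Because the sum includes the called *Klrd1* and *Klrk1*, it is no separate result about the family. *Klrd1* alone accounted for 38.6% to 49.0% of receptor counts in the HCME-sEV libraries and 47.4% to 52.2% in the LME-sEV libraries.

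The levels were also set against the 6 CD8 T markers, because those rose in sum. Per 100 marker counts, *Klrd1* gave 13.1, 17.8, 19.97, and 12.9 counts in the HCME-sEV libraries and 19.3, 20.9, and 19.8 in the LME-sEV libraries, which overlap. *Klrk1* gave 8.31, 9.53, 10.2, and 7.20 against 11.9, 10.6, and 9.82, which also overlap. *Klrc1* gave 9.46, 8.12, 7.53, and 7.81 against 7.49, 6.57, and 7.23, so that on this scale every LME-sEV library lay below every HCME-sEV library, by a narrow margin at the nearest pair. In the edgeR fit on this scale the median log2 fold change of all genes was −0.21, and *Klrc1* stood at −0.0087 relative to it. The share of all genes without overlap on this scale was not computed.

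In the edgeR fit scaled to these marker counts, *Klrd1* (log2 fold change 0.33, FDR = 0.0723) and *Klrk1* (0.29, FDR = 0.0900) were no longer called. This scale moved the median of all genes to −0.21 and gave 155 genes higher and 2276 lower. Relative to that median the log2 differences were 0.54 for *Klrd1* and 0.50 for *Klrk1*. A change of scale moves all genes nearly alike, so these differences repeat those under TMM (0.53 and 0.49) by construction. They do not bear on the marker level, whose part in the receptor calls was not tested.

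**Figure D2:**
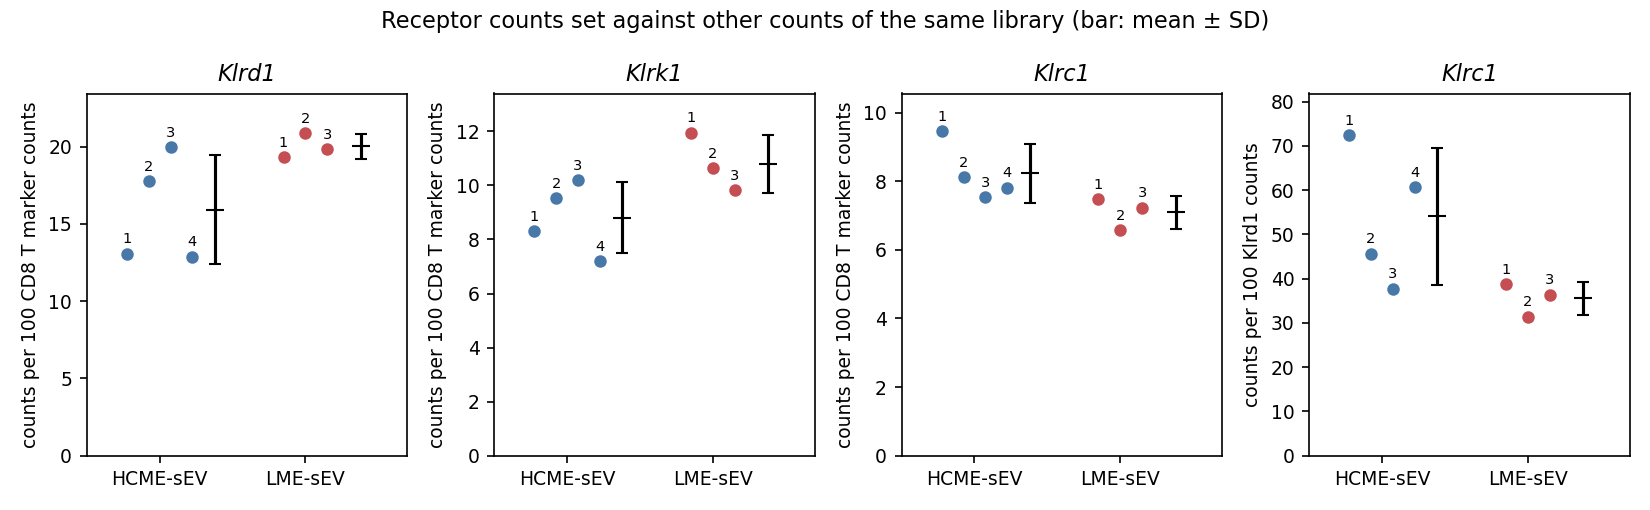
Counts of *Klrd1*, *Klrk1*, and *Klrc1* per 100 CD8 T marker counts, and of *Klrc1* per 100 *Klrd1* counts (vertical axes from 0), in each HCME-sEV (blue) and LME-sEV (red) library, with mean ± SD bars. *Klrc1* per marker count is the panel without overlap, from 7.53 to 9.46 against 6.57 to 7.49, on a scale that moved the median log2 fold change of all genes to −0.21. *Klrc1* per *Klrd1* count spans 37.7 to 72.4 in the HCME-sEV group but 31.4 to 38.7 in the LME-sEV group.

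The paired chains *Klre1* and *Klri2* came next. *Klre1* measured 19.3, 22.8, 29.3, and 17.5 CPM in the HCME-sEV libraries and 15.3, 16.9, and 28.9 CPM in the LME-sEV libraries. LME-sEV library 3 stood well above the other two, and the groups overlapped. The log2 fold change was −0.09 with a 95% confidence interval of −0.51 to 0.33 (edgeR FDR = 0.845). *Klri2*, at 2.41, 4.56, 6.40, and 5.82 against 5.38, 4.72, and 8.92 CPM, was again highest in LME-sEV library 3, and its log2 fold change of 0.43 had a 95% confidence interval of −0.22 to 1.08 (edgeR FDR = 0.452). *Klri1*, the inhibitory alternative to *Klri2*, had 0 counts in all libraries.

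*Klra7* encodes Ly49G, an inhibitory receptor for class I MHC. It measured 6.26, 5.58, 5.87, and 3.26 CPM in the HCME-sEV libraries and 4.57, 6.52, and 4.65 CPM in the LME-sEV libraries, and the groups overlapped. The log2 fold change was 0.01 with a 95% confidence interval of −0.58 to 0.60 (edgeR FDR = 0.990), a wide interval set by 14 to 29 counts per library. Its 3′ end was 98.1% identical to that of the pseudogene *Klra13-ps*.

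*Klrg1* and *Klrb1c* had at most 7 and 8 counts in a library and were not entered in the fit. *Klrg1* encodes a cadherin receptor with an inhibitory motif that marks short-lived effector cells, and it had 1, 1, 3, and 3 counts in the HCME-sEV libraries and 2, 7, and 5 in the LME-sEV libraries. The means of 0.498 ± 0.29 CPM (SD, n = 4) and 1.03 ± 0.52 CPM (SD, n = 3) did not pass a two-sided exact permutation test (p = 0.143), for which 35 splits allow no p below 0.0286. *Klrb1c* encodes NK1.1, the surface marker of NK and NKT cells in C57BL/6 mice, and it had 8, 3, 3, and 2 counts against 2, 1, and 2. Its means of 0.988 ± 0.64 CPM (SD, n = 4) and 0.384 ± 0.16 CPM (SD, n = 3) did not pass the same exact permutation test (p = 0.143), and its exons overlap those of *Gm44511* on the same strand.

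In the HCME-sEV group the order of mean CPM levels was *Klrd1*, *Klrk1*, *Klrc1*, *Klre1*, *Klrc2*, *Klra7*, *Klri2*, *Klrb1c*, and *Klrg1*. The places of *Klrc1*, *Klrc2*, and *Klra7* are less certain because of their nearly identical 3′ ends. The libraries of *Klrk1* and *Klrc1* overlapped, as did those of *Klra7* and *Klri2* and of *Klrb1c* and *Klrg1*, whereas the other neighbors were apart. In the LME-sEV group *Klrk1*, at 192 to 227 CPM, no longer overlapped *Klrc1*, at 138 to 142 CPM. *Klri2* and *Klra7* exchanged places there and overlapped, *Klrg1* and *Klrb1c* exchanged places and met at 2 counts each in LME-sEV library 1, and *Klre1* and *Klrc2* came as close as 15.3 CPM each.

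The positions of the calls were described without a test. Between bases 128609227 and 131247362 of chromosome 6, 120 genes were annotated and 20 were tested, of which 12 were *Klr* genes. *Klrd1* (129591782 to 129598775, plus strand) and *Klrk1* (129610323 to 129623864, minus strand) stand side by side, yet their nearest tested neighbors on either side, *Klre1* (129577905 to 129585827, plus strand) and *Klrc2* (129647496 to 129660689, minus strand), were not called. Of the 8 tested genes of other families, 2 were called, against 8.96% of all tested genes. These 2 adjoin each other and lie near *Klrd1* and *Klrk1* in the order of tested genes, with *Gabarapl1* and *Klre1* in between. *2310001H17Rik* rose from 25.2 to 44.2 CPM (log2 fold change 0.82, edgeR FDR = 6.91e-04), and *Cd69*, an early activation antigen of the same lectin superfamily, fell from 65.4 to 37.1 CPM (−0.82, edgeR FDR = 1.31e-04); both were singled out after their values were seen.

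**Figure D3:**
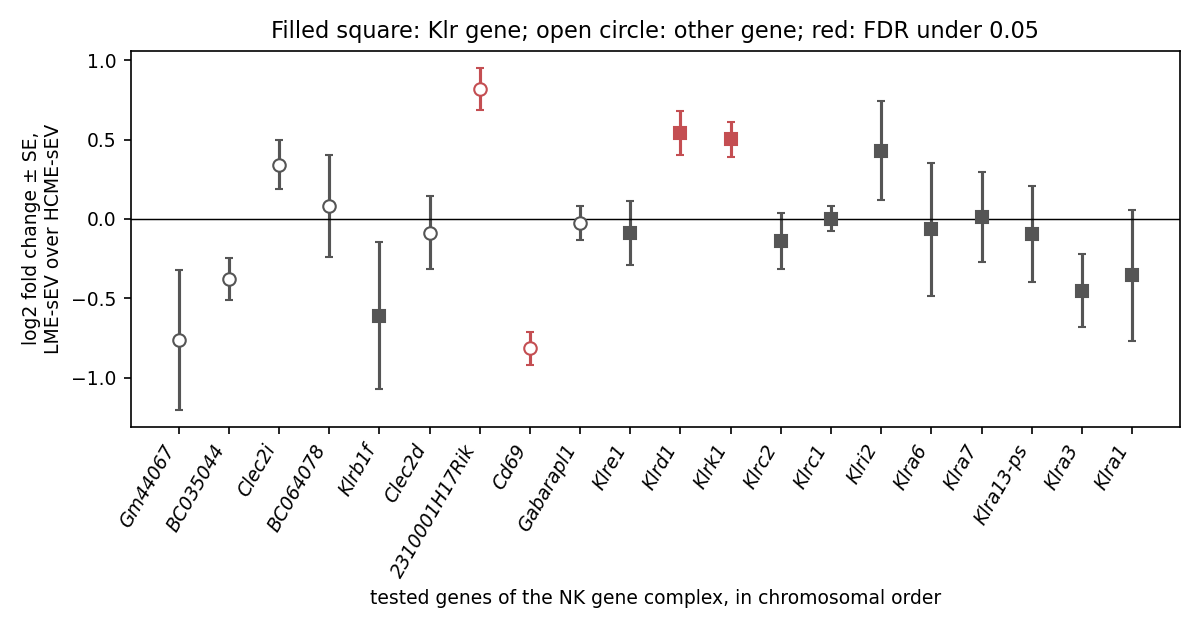
Log2 fold change ± SE (LME-sEV over HCME-sEV, edgeR; vertical axis) of the 20 tested genes of the NK gene complex in chromosomal order (horizontal axis, evenly spaced), with filled squares for *Klr* genes, open circles for other genes, and red for FDR under 0.05. *Klrd1* and *Klrk1* are the only red squares, at 0.54 and 0.50, between *Klre1* at −0.09 and *Klrc2* at −0.14.

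Outside the 9 receptors, a list of 18 further *Klr* genes held 16 with any count and 4 that could be tested. By edgeR, 0 of the 4 were called, 0 had an unadjusted p under 0.05, and the DESeq2 and limma tests also called 0. All 4 log2 fold changes were negative, from −0.61 for *Klrb1f* to −0.06 for *Klra6*, with a median of −0.40. *Klra3*, which encodes Ly49C, was lower in every LME-sEV library, at 8.46 ± 1.6 CPM (SD, n = 4) against 6.10 ± 1.2 CPM (SD, n = 3), but did not pass (log2 fold change −0.45, edgeR FDR = 0.253), whereas in the scale set to CD8 T marker counts it did (−0.68, edgeR FDR = 0.0499). Its 3′ end was 98.7% identical to that of *Klra9*. The marker scale called 2276 of the 12623 tested genes lower. Groups without overlap in the lower direction made up 10.8% of all tested genes, and 20.3% in either direction.

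The transcripts of the ligands were read in the same T cells. Of 17 ligand genes 13 were matched, 9 had any count, and 8 were tested, with 0 called, 1 with an unadjusted p under 0.05 in edgeR and in limma and 0 in DESeq2. *H2-T23* encodes Qa-1, the ligand of CD94/NKG2, and it had 14, 31, 31, and 8 counts in the HCME-sEV libraries and 12, 29, and 65 in the LME-sEV libraries. Its values were spread widely within both groups, and its log2 fold change of 0.56 had an SE of 0.404 (edgeR FDR = 0.449). *Ulbp1*, which encodes the NKG2D ligand MULT1, was present at 48.6 ± 5.9 CPM (SD, n = 4) and 50.5 ± 5.0 CPM (SD, n = 3), with a log2 fold change of 0.06 (edgeR FDR = 0.822).

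The other NKG2D ligands in the table, *Raet1d*, *Raet1e*, *H60b*, and *H60c*, had at most 1 count in any library. *Cdh1*, the cadherin bound by KLRG1, had 4 to 17 counts and a log2 fold change of −0.50 with an SE of 0.504 (edgeR FDR = 0.612), and *Cdh2* had 0 counts. The class I genes *H2-K1* (0.10) and *H2-D1* (0.11), ligands of Ly49 receptors, and their light chain *B2m* (−0.02) kept log2 fold changes near 0. *Clec2i*, which encodes a ligand of an NKR-P1 receptor, was not called (0.34, edgeR FDR = 0.193). It was the 1 of 8 tested ligand genes with every LME-sEV library above every HCME-sEV library, against 9.49% of all tested genes.

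The adaptors and signaling molecules followed neither called receptor past the threshold. Of 12 genes 10 were tested and 0 were called, 2 of them with an unadjusted p under 0.05 in edgeR and also in DESeq2 and limma. *Hcst*, which encodes the NKG2D adaptor DAP10, measured 45.0, 41.6, 50.7, and 43.5 CPM in the HCME-sEV libraries and 47.1, 64.5, and 53.1 CPM in the LME-sEV libraries. The groups overlapped through LME-sEV library 1, and the log2 fold change was 0.29 with an SE of 0.114 (edgeR FDR = 0.130). *Hcst* counts per 100 *Klrk1* counts were 30.7 ± 5.11 (SD, n = 4) and 25.8 ± 3.84 (SD, n = 3), which overlap.

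*Tyrobp*, which encodes the DAP12 adaptor of activating receptors such as NKG2C, had 1, 7, 0, and 1 counts in the HCME-sEV libraries and 12, 6, and 6 in the LME-sEV libraries, and was too scarce for the fit. *Ptpn6* encodes SHP-1, the phosphatase that inhibitory receptors such as NKG2A recruit. It was lower in every LME-sEV library, at 173 ± 3.6 CPM (SD, n = 4) against 148 ± 5.6 CPM (SD, n = 3), without passing the threshold (log2 fold change −0.22, edgeR FDR = 0.0698). In the scale set to CD8 T marker counts, which called 2276 of the 12623 tested genes lower, it was called lower (−0.44, edgeR FDR = 0.00895). *Grb2* of the same list was higher in every LME-sEV library, at 166 ± 9.1 CPM (SD, n = 4) against 184 ± 2.8 CPM (SD, n = 3; log2 fold change 0.15, edgeR FDR = 0.253). Of the 10 tested, 1 lay without overlap in each direction, against 9.49% higher and 10.8% lower over all tested genes.

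**Figure D4:**
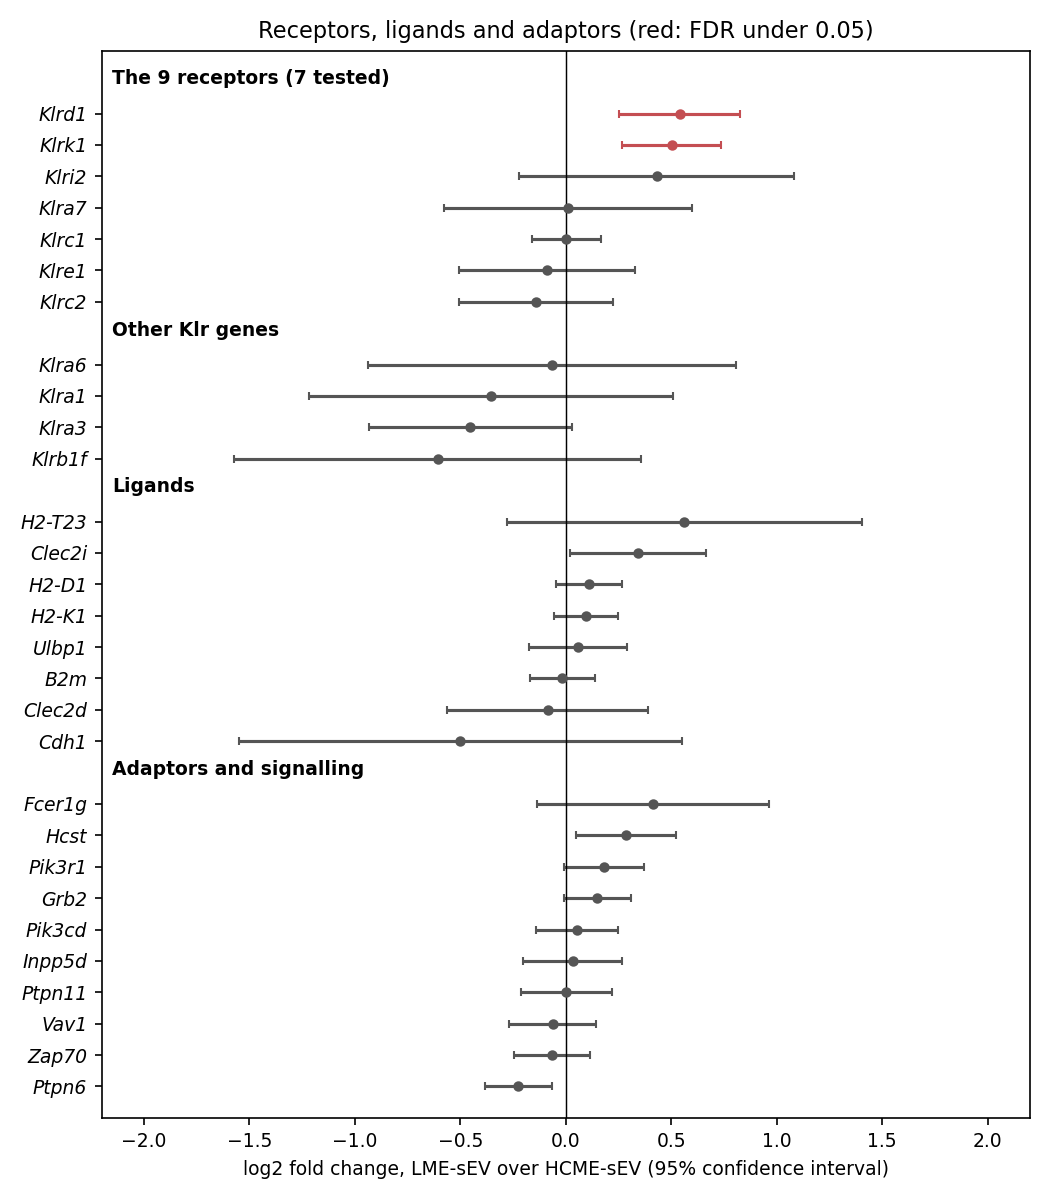
Log2 fold change (LME-sEV over HCME-sEV, horizontal axis) with 95% confidence intervals from edgeR for the tested receptors, other *Klr* genes, ligands, and adaptors, with red marking an FDR under 0.05. *Klrd1* (0.25 to 0.83) and *Klrk1* (0.27 to 0.73) are the red genes, and the interval of *Klrc1* is the narrowest of the receptors.

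A list of 18 genes of the effector program, the regulators and companions of these receptors in cytotoxic cells, split in both directions. Of the 17 tested, 3 rose and 5 fell, against 3.75% higher and 5.21% lower over all tested genes. Their median log2 fold change was 0.05. The list was chosen with earlier results of these data known, so these counts are no independent result. The transcriptional regulators *Tbx21* (T-bet; 101 ± 9.8 against 76.3 ± 5.2 CPM, edgeR FDR = 0.0100) and *Id2* (379 ± 45 against 298 ± 23 CPM, edgeR FDR = 0.0192) fell, and so did the mRNAs of granzyme B (*Gzmb*, log2 fold change −0.35, edgeR FDR = 0.0335) and Fas ligand (*Fasl*, −0.54, edgeR FDR = 0.0119). The regulator Blimp-1 (*Prdm1*, 0.92, edgeR FDR = 0.00340), the chemokine *Ccl5* (0.66, edgeR FDR = 0.00341), and the IL7 receptor (*Il7r*, 0.52, edgeR FDR = 0.00125) rose. *Eomes* (−0.18) and *Runx3* (0.18) were not called. *Klrg1*, a usual companion of high T-bet, had the few counts given above, with 7 and 5 in LME-sEV libraries 2 and 3. Without LME-sEV library 2 the list gave 4 calls, with *Tbx21*, *Id2*, *Gzmb*, and *Fasl* lost (edgeR FDR = 0.0726, 0.101, 0.142, and 0.0616). Without LME-sEV library 3 it gave 5, with *Id2* and *Fasl* among those lost (edgeR FDR = 0.122 and 0.0638), and *Gzmb* was also lost without HCME-sEV library 2 or 3 or LME-sEV library 1 (edgeR FDR = 0.132, 0.0730, and 0.177) and under scaling by library size alone (−0.31, edgeR FDR = 0.0655). Scaled to CD8 T marker counts, *Il7r* was not called (0.31, edgeR FDR = 0.0547).

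Markers of other cells that could carry these receptors were read beside the receptor values. Of 10 NK markers 6 were tested and 0 called by edgeR, DESeq2, or limma, 1 with an unadjusted p under 0.05 by each, and their summed level was 216 to 279 CPM in the HCME-sEV group and 218 to 261 CPM in the LME-sEV group, most of it *Eomes* and *Gzma*, which CD8+ T cells also express. The markers of NKT and γδ T cells (4 of 7 matched) summed to 14.2 to 20.3 and 10.2 to 14.0 CPM, lower in every LME-sEV library. Of single tested genes, 10.8% lay without overlap in this direction. Nearly all of the sum was *Trdc*, the 1 tested gene, which was not called (log2 fold change −0.32, edgeR FDR = 0.284) and had no unadjusted p under 0.05. By edgeR the NK marker with an unadjusted p under 0.05 was *Eomes*, which was lower (log2 fold change −0.18, unadjusted p = 0.0384). The other tested NK markers had positive log2 fold changes, and the median of the 6 was 0.27. *Tyrobp* had 0 to 7 counts in the HCME-sEV libraries and 6 to 12 in the LME-sEV libraries, and *Ncr1*, with 1 count in the whole experiment, was too scarce to read.

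CD4 T markers summed to 6.26 to 14.4 CPM in the HCME-sEV group and 15.3 to 17.3 CPM in the LME-sEV group, with *Zbtb7b* rising (0.87, edgeR FDR = 0.0241) while *Cd4* had 0 to 3 counts. The call of *Zbtb7b* was lost without HCME-sEV library 1 or 4 or any single LME-sEV library (edgeR FDR = 0.0519 to 0.114). B-cell markers summed to 15.0 to 17.1 and 16.7 to 19.4 CPM, with 0 of 3 tested called and 0 with an unadjusted p under 0.05. Myeloid and basophil markers summed to 7.95 to 31.7 and 22.9 to 40.9 CPM, with 2 of 4 tested called, against 8.96% of all tested genes. Called were *Mcpt8*, a basophil protease (log2 fold change 1.43, edgeR FDR = 0.0341), and *Prg2*, a granule protein of eosinophils and basophils (3.92, edgeR FDR = 1.65e-04, with 0 to 2 counts in the HCME-sEV libraries and 18 to 41 in the LME-sEV libraries). The other tested markers of this list were not called, with 1 in each direction: *Fcer1a* (0.37, edgeR FDR = 0.706) and *Cpa3*, at 9.18 against 7.67 CPM (−0.26, edgeR FDR = 0.721). The call of *Mcpt8* was lost in DESeq2 (FDR = 0.355) and, by edgeR, without HCME-sEV library 4 or LME-sEV library 1 or 2 (FDR = 0.0961 to 0.217). Within the HCME-sEV group *Mcpt8* was also high in libraries 2 and 3 (8.87 and 6.40 CPM) and low in libraries 1 and 4 (0.723 and 2.095 CPM), the same split as for *Klrd1*, *Klrk1*, and *Cd3g*. The split was not particular to these genes. *Gzmb*, called lower, had it too (1294, 1646, 1652, and 1265 CPM), as did *Klre1*, *H2-T23*, *Zbtb7b*, and *Cpa3*, whereas *Klrc1* and *Gzma* did not. The part of other cell types in the receptor values was not tested.

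The 3 tested genes with the profile most like that of *Klrd1* over the 7 libraries, by the root mean square difference of centered log2 CPM, were *Tsc22d1* (0.1003), *2900076A07Rik* (0.108), and *Gucy1a1* (0.109), with *Klrk1* at rank 12 (0.132). *Tsc22d1* ran at 5.78, 8.36, 10.7, and 5.35 CPM in the HCME-sEV libraries and 11.6, 13.3, and 11.2 CPM in the LME-sEV libraries, but was not called (log2 fold change 0.68, edgeR FDR = 0.0584). These genes were chosen for their likeness to *Klrd1*, so the resemblance is a description over 7 libraries.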

How the data were processed

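CD8+ T cells treated with HCME-sEVs (4 libraries) or LME-sEVs (3 libraries) were measured by 3′ sequencing of mRNA with unique molecular identifiers. The authors deposited raw counts per gene: reads were trimmed with cutadapt 2.10, mapped to GRCm38 with STAR 2.5.3a, collapsed with UMI-tools 1.0.0, and counted with featureCounts (Subread 2.0.0). The annotation release, the strand setting, and the handling of reads with several hits are not given in the sources used here.

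The 12623 of 55367 genes that averaged 5 or more counts were fitted with the edgeR 4.0.16 quasi-likelihood test (TMM, no covariates). Benjamini-Hochberg adjustment ran over every tested gene, with calls at an FDR under 0.05. A prior count of 2 entered the log2 CPM used for profiles and replicate correlations, and not the log2 fold changes of the fit. *Klrg1* and *Klrb1c*, below that minimum, were compared by a two-sided exact permutation test of mean CPM. Confidence intervals are 95%, and detection floors of 3 counts cover counting error only. Positions and 3′ ends (last 300 bases of each gene model, at least 95% identity over at least 200 bases, BLAST 2.17.0) came from GENCODE on GRCm38, and promoters from RefSeq. The fit was tested on simulated data.

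Named genes were the 9 receptors, genes of the other lists called by edgeR, direct ligands and adaptors (*H2-T23*, *Hcst*, *Tyrobp*, *Cdh1*), and the 3 profiles nearest to *Klrd1*. Of the called genes of the effector list, 1 is not reported here by name. Other genes named were picked after their values were seen. The receptors and lists were chosen with earlier results of these data known. Alternatives were other scalings (DESeq2 size factors, upper quartile, library size), filters (filterByExpr, at least 1 count), tests (DESeq2 1.42.0, limma 3.58.1 with voom), a log2 fold change beyond 1, leaving out each library, and a replicate block. Scaling to CD8 T marker counts was added after seeing the data.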

Additional observations from a re-analysis of the deposited data

Results flagged for a closer look

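In the group of 4 HCME-sEV libraries, 25 named genes were checked for a single library standing apart, by how much of the group's whole range separated it from its nearest neighbor (Dixon's test), and 2 exceeded the 95% critical value. Chance would give about 1 in 20, or 1.25 of 25. *Il7r* was high in HCME-sEV library 3 (ratio 0.857), at 250 CPM against 188 to 197 CPM in the other HCME-sEV libraries and 291 to 303 CPM in the LME-sEV libraries. *Prg2* was low in HCME-sEV library 1 (ratio 0.873), which had 0 counts against 2 in each of the others. None of the 9 receptors was among them.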

How the results depend on the processing

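Both *Klrd1* and *Klrk1* were called under DESeq2 size factors, upper-quartile scaling, library size alone, either other filter, and limma. The DESeq2 Wald test called 1 receptor, a further cutoff of log2 fold change 1 called 0, and scaling to CD8 T marker counts called 0. In these settings *Klrd1* stayed between 0.33 and 0.58 and *Klrk1* between 0.29 and 0.55 (log2). Leaving out each library gave 0 to 2 called receptors, with *Klrd1* at 0.43 to 0.70 and *Klrk1* at 0.41 to 0.61. Other *Klr* genes gave 1 call and adaptors 1 call when scaled to CD8 T marker counts, both lower, and 0 otherwise, and ligands gave 0 throughout. The effector list gave 0 calls with the fold cutoff and 4 to 9 when 1 library was left out. Low counts limit *Klri2* and *Klra7*, at 10 to 46 and 14 to 29 counts per library.

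The groups share replicate numbers 1 to 3, and the deviations of same-numbered libraries correlated at 0.0721, 0.155, and 0.0268, not all above 0.1, so the numbers were not taken as pairs. LME-sEV libraries 1 and 3 correlated best with a library of another number. With replicate number as a block, without HCME-sEV library 4, there were 1440 calls (587 higher, 853 lower) and 2 receptors called, against 918 and 1 in the same 6 libraries without the block and 1131 and 2 in all 7 (*Klrd1* 0.47, FDR = 4.73e-04; *Klrk1* 0.42, FDR = 0.00239).

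For some uncalled genes the sign turned. *Klrc1* was −0.020 in the block and −0.21 scaled to CD8 T marker counts, and −0.022 to 0.034 when 1 library was left out. *Klra7* was −0.17, −0.21, and −0.18 to 0.11 in the same order. Relative to the median of all genes, which the marker scale itself moved to −0.21, *Klrc1* stood at −0.0087 and *Klra7* at −0.0078. Leaving out 1 library gave −0.45 to 0.070 for *Klre1*, −0.080 to 0.89 for *H2-T23*, and −0.76 to 7.66e-04 for *Cdh1*, which was 0.076 in the block. The causes were not tested.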
